A study of Mus musculus with 16 samples.

Results

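The cytosolic ribosomal proteins are the protein parts of the small and large subunits of the ribosome that translates nuclear-encoded mRNAs in the cytosol. Their genes were taken as the probe sets whose symbol starts with Rps or Rpl and a number, or is Rpsa, Rplp0, Rplp1 or Rplp2. Of 75 symbols of that form, 6 S6 kinase genes (Rps6k), Rps19bp1, 1 pseudogene symbol and 3 retrogene symbols (Rps27rt, Rpl37rt and Rps23rg1) were left out, which gave 64 genes among 19572 probe sets with 1 gene symbol. Of the 64, 24 belong to the small and 40 to the large subunit. There were 55 genes of the usual ribosome (22 small, 33 large) and 9 paralogs or gene copies (Rpl3l, Rpl7l1, Rpl10l, Rpl22l1, Rpl32l, Rpl36al, Rpl39l, Rps4l and Rps27l).

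Ribosomal proteins join ribosomal RNA in the nucleolus, and the subunits are assembled there before export to the cytosol. Cells make the proteins in matched amounts, mostly from mRNAs that begin with a run of pyrimidines, the 5′ terminal oligopyrimidine (TOP) motif, which places their translation under the growth-regulating kinase complex mTORC1. Growing and dividing cells generally hold much of this mRNA. The olfactory mucosa holds both dividing progenitors and long-lived olfactory sensory neurons (OSNs).

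RNA came from sorted olfactory mucosa cells of 24 mice of both sexes carrying S100a5-tauGFP, a reporter driven from the gene of S100a5, a calcium-binding protein that OSNs make with activity. The mice were 7 to 12 weeks old and spent 40 h singly in chambers with an air flow of 3.1 L/min. From 26 h on they received 10 s pulses every 20 min, either of citrus accord at 100% or of filtered air as the vehicle. Cells were sorted by fluorescence, and each of the 16 Clariom S arrays held RNA of cells pooled from 3 mice. The 4 groups, with n = 4 arrays each, were GFP-positive cells after citrus, GFP-negative cells after citrus, GFP-positive cells after vehicle and GFP-negative cells after vehicle. All mice carried the reporter. A GFP-negative array therefore holds every sorted cell below the gate, inactive OSNs included, and not a defined cell type.

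The gate itself was visible in the reporter gene. S100a5 averaged 17.43 ± 0.10 in GFP-positive cells and 15.55 ± 0.10 in GFP-negative cells after citrus, and 16.86 ± 0.16 in GFP-positive cells and 14.94 ± 0.13 in GFP-negative cells after vehicle (log2 signal, SD, n = 4 each). Omp, the marker of mature OSNs, lay between 18.83 and 19.42 on all 16 arrays, so mature OSNs were present on both sides of the gate. Several other cell types differed across the gate. The mean of 14 myeloid markers ranged from 5.71 to 6.15 in GFP-positive cells and from 12.15 to 13.78 in GFP-negative cells after citrus, and from 5.66 to 6.51 in GFP-positive cells and from 12.71 to 13.68 in GFP-negative cells after vehicle. In GFP-positive cells 13 of the 14 after citrus and 11 of the 14 after vehicle lay below the 95th percentile of the negative-control probes on every array. Markers of globose basal and cycling cells, microvillous cells and lymphocytes were also lower in GFP-positive cells, in 7 of 7, 8 of 8 and 7 of 9 genes after citrus and in 6 of 7, 7 of 8 and 7 of 9 after vehicle (limma, adjusted p under 0.05). Many of these were dim on both sides of the gate: in GFP-negative cells after citrus 5 of the 7 globose basal and cycling, 4 of the 8 microvillous and 7 of the 9 lymphoid markers lay below that percentile on every array, and after vehicle 5, 4 and 8. The mean of 12 immature OSN markers was 11.52 ± 0.09 in GFP-positive cells and 12.45 ± 0.15 in GFP-negative cells after citrus, and 11.43 ± 0.06 in GFP-positive cells and 12.46 ± 0.12 in GFP-negative cells after vehicle (SD, n = 4 each), with no overlap and 5 of 12 genes lower after each stimulus. Sustentacular markers were lower in 4 of 9 genes after citrus and 3 of 9 after vehicle, Bowman gland markers in 4 of 7 and 2 of 7, and erythroid markers in 2 of 2 after each. Not every list was lower. Of horizontal basal markers 0 of 6 passed after either stimulus, and of stroma and endothelium markers 0 of 8, nearly all of them below that percentile. Respiratory ciliated markers went the other way, higher in 2 of 4 genes after citrus and 1 of 4 after vehicle. These marker differences accompany every gate comparison below, and their part in the ribosomal protein values was not tested. In such bulk samples, fewer cells of a type and less RNA per cell cannot be told apart.

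Ribosomal protein mRNAs were lower in GFP-positive than in GFP-negative cells after both stimuli, most of all Rplp0. After citrus 33 of the 64 genes were lower and 0 were higher, against a background of 10.8% of all probe sets lower and 7.44% higher. After vehicle 17 were lower and 0 higher, against a background of 9.97% lower and 9.05% higher (limma over 16 arrays, Benjamini-Hochberg over 19572 probe sets, adjusted p under 0.05). The median log2 difference of the 64 genes was -0.56 after citrus and -0.43 after vehicle, beside 0.13 and 0.11 for all probe sets. All called genes were among the 56 members with a mean above the negative-control 95th percentile. Of the 5512 probe sets above that level, 6.53% were lower after citrus and 6.8% after vehicle. The arrays of GFP-positive cells lay wholly below those of GFP-negative cells for 37 of the 64 genes after citrus and 11 after vehicle, against 11% and 9.96% of all probe sets.

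How many genes passed depended on the scaling of the arrays and on single pools. The median of all probe sets differed by -0.33 after citrus and by -0.28 after vehicle between GFP-positive and GFP-negative arrays. Centring every array on it left 19 lower and 3 higher genes after citrus and 5 lower and 3 higher after vehicle. In that scaling 8.74% of all probe sets were lower and 46.6% higher after citrus, and 7.95% lower and 36.2% higher after vehicle, so the members' share lower was above the background after citrus (29.7%) and at it after vehicle (7.81%). Centring on 14 mature OSN markers, whose mean was 0.37 higher in GFP-positive cells after citrus and 0.29 higher after vehicle, gave 50 lower after citrus and 30 lower after vehicle, with 0 higher, against 18.7% and 15.8% of all probe sets lower. The median of the members minus that of all probe sets was -0.69 after citrus and -0.54 after vehicle, a quantity that centring cannot change. Without citrus pool 3 or citrus pool 4 the citrus count was 17 (26.6% of the members, against 9.22% of all probe sets without pool 3 and 8.35% without pool 4), and 15 genes passed whichever citrus pool was left out. The vehicle count was 9 without pool 2 (14.1%, against 7.86% of all probe sets) and 8 without pool 3 (12.5% against 8.43%). Without pool 4 it was 1 (1.56%), below the 7.36% of all probe sets, when Rplp0 alone passed, so each other vehicle call named below was lost without vehicle pool 4. The same 16 genes were lower after both stimuli, 17 passed after citrus only, 1 (Rpl29) passed after vehicle only, and 30 passed in neither.

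**Figure D1:**
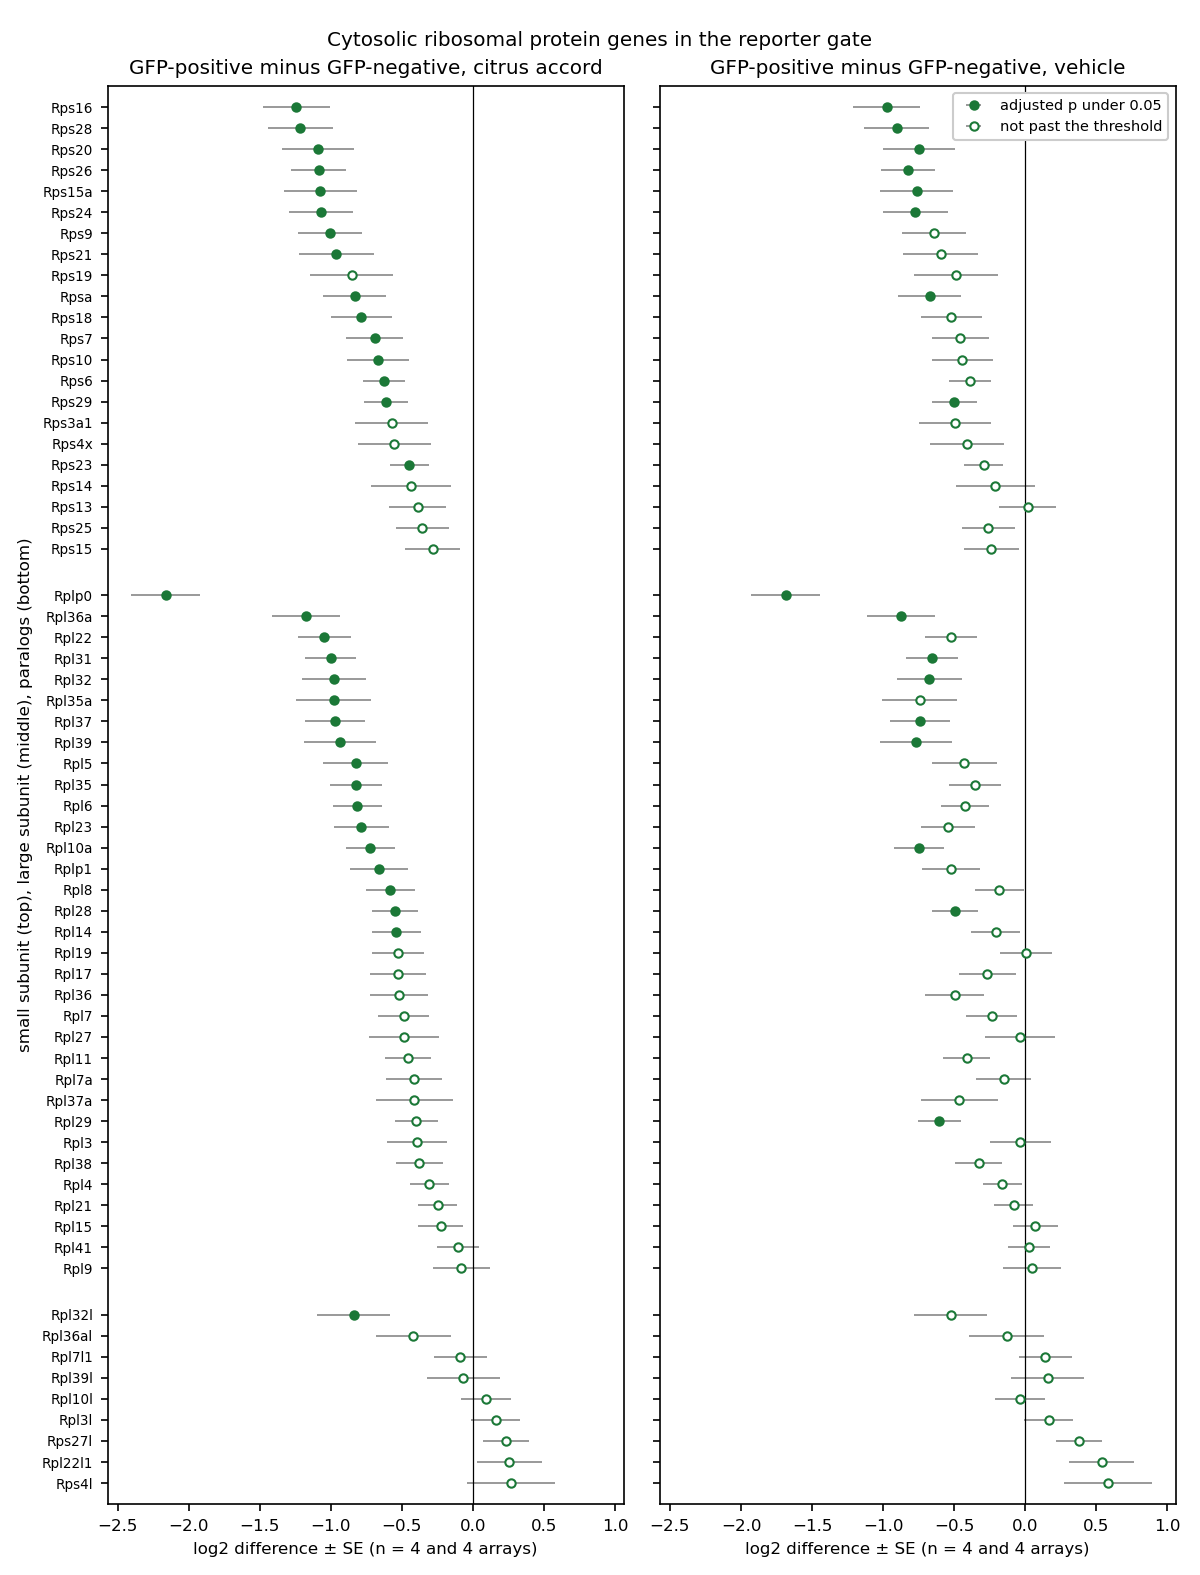
Each row is 1 of the 64 ribosomal protein genes, and each point its log2 difference between GFP-positive and GFP-negative cells with the standard error of the model, after citrus (left) and vehicle (right). Filled points passed an adjusted p of 0.05 (33 after citrus, 17 after vehicle), all lie left of 0, and Rplp0 stands furthest left in both panels.

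Rplp0 encodes the base of the ribosomal stalk, on which the acidic P proteins sit and to which elongation factors are drawn. Its log2 signal was 10.39, 10.26, 9.96 and 10.32 in GFP-positive cells after citrus, against 11.82, 11.96, 12.85 and 12.95 in GFP-negative cells. After vehicle it was 10.05, 10.27, 10.24 and 10.01 in GFP-positive cells and 11.36, 11.81, 11.86 and 12.28 in GFP-negative cells. Every GFP-positive array lay more than a full log2 unit below the lowest GFP-negative array of its stimulus. The difference was -2.16 ± 0.24 after citrus (adjusted p = 2.9e-06) and -1.69 ± 0.24 after vehicle (adjusted p = 5.8e-05), with ± giving the standard error of the limma fit here and below. Rplp1, which encodes a P protein of the same stalk, differed by -0.66 ± 0.20 after citrus (adjusted p = 0.0301) and by -0.53 ± 0.20 after vehicle (adjusted p = 0.0846), the first past the threshold and the second not.

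The small subunit genes lay lower after each stimulus, with 15 of 22 past the threshold after citrus (median difference -0.74) and 8 of 22 after vehicle (median -0.49). Rps16, which lies in the head of the small subunit, had 11.43, 11.67, 11.52 and 11.69 in GFP-positive cells after citrus, against 12.30, 12.56, 13.32 and 13.10 in GFP-negative cells. After vehicle it had 11.82, 12.26, 11.85 and 11.30 in GFP-positive cells and 12.37, 13, 12.69 and 13.08 in GFP-negative cells. The groups did not overlap after either stimulus, and the differences were -1.24 ± 0.24 (adjusted p = 7.7e-04) after citrus and -0.97 ± 0.24 (adjusted p = 0.0067) after vehicle. Rps28, Rps20, Rps26, Rps15a, Rps24 and Rps9 followed after citrus, with differences from -1.21 for Rps28 to -1.01 for Rps9. The first 5 of these also passed after vehicle, between -0.91 for Rps28 and -0.75 for Rps20, while Rps9 had -0.64 ± 0.23 (adjusted p = 0.0549). Rps26, whose protein sits by the exit of the mRNA channel, averaged 11.94 ± 0.24 in GFP-positive cells and 13.02 ± 0.34 in GFP-negative cells after citrus, and 12.10 ± 0.24 in GFP-positive cells and 12.93 ± 0.22 in GFP-negative cells after vehicle (SD, n = 4 each), with no overlap. Rps6, the substrate of the S6 kinases downstream of mTORC1, passed after citrus at -0.63 ± 0.15 (adjusted p = 0.0046) and not after vehicle at -0.39 ± 0.15 (adjusted p = 0.0747). Rpsa and Rps29 passed after vehicle only as long as arrays were taken as independent: with the pool as a block their adjusted p was 0.0725 and 0.0523.

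Of the 33 usual large subunit genes, 17 passed after citrus (median difference -0.54) and 9 after vehicle (median -0.42). Rpl36a had 11.19, 11.14, 11.13 and 10.80 in GFP-positive cells after citrus and 11.88, 12.17, 12.42 and 12.47 in GFP-negative cells. After vehicle it had 11.54, 11.77, 11.06 and 10.84 in GFP-positive cells and 11.51, 12.52, 12.16 and 12.53 in GFP-negative cells. The groups were apart after citrus (-1.18 ± 0.24, adjusted p = 0.0015), and after vehicle pool 1 of the GFP-negative cells lay inside the GFP-positive range (-0.88 ± 0.24, adjusted p = 0.0149). Rpl22, an RNA-binding protein of the large subunit, had 12.40, 12.20, 12.23 and 12.02 in GFP-positive cells after citrus, against 12.88, 13.08, 13.59 and 13.48 in GFP-negative cells. Its groups did not overlap there, and the difference was -1.05 ± 0.19 (adjusted p = 4.1e-04), whereas after vehicle it was -0.52 ± 0.19 (adjusted p = 0.0582). Rpl39, a small protein that lines the exit tunnel of the nascent chain, differed by -0.94 ± 0.25 after citrus and by -0.77 ± 0.25 after vehicle (adjusted p = 0.0137 and 0.0417). Rpl10a differed by -0.72 ± 0.18 and -0.75 ± 0.18 (adjusted p = 0.0063 and 0.0053), with no overlap after either stimulus.

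Rpl29 was the one gene past the threshold after vehicle and not after citrus. It had 12.39, 12.37, 12.51 and 12.18 in GFP-positive cells and 12.47, 12.78, 12.96 and 12.84 in GFP-negative cells after citrus, a difference of -0.40 ± 0.15 (adjusted p = 0.0774). After vehicle it had 12.12, 12.31, 12.35 and 12.19 in GFP-positive cells and 12.52, 12.86, 13.05 and 12.95 in GFP-negative cells, a difference of -0.61 ± 0.15 (adjusted p = 0.0083). The citrus groups overlapped by a narrow margin and the vehicle groups did not. Its change between stimuli was 0.21 ± 0.21 (adjusted p = 0.999), so the 2 differences were not shown to differ. At the other end, Rpl9, Rpl41 and Rpl15 had the smallest differences of the usual genes after citrus, -0.08 ± 0.20, -0.11 ± 0.15 and -0.23 ± 0.16, and 0.05, 0.03 and 0.07 after vehicle. Rpl5 and Rpl11, whose proteins bind the 5S ribosomal RNA and the p53 regulator Mdm2, stood on different sides of the threshold after citrus, with -0.83 ± 0.23 (adjusted p = 0.0160) and -0.46 ± 0.16 (adjusted p = 0.0615).

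**Figure D2:**
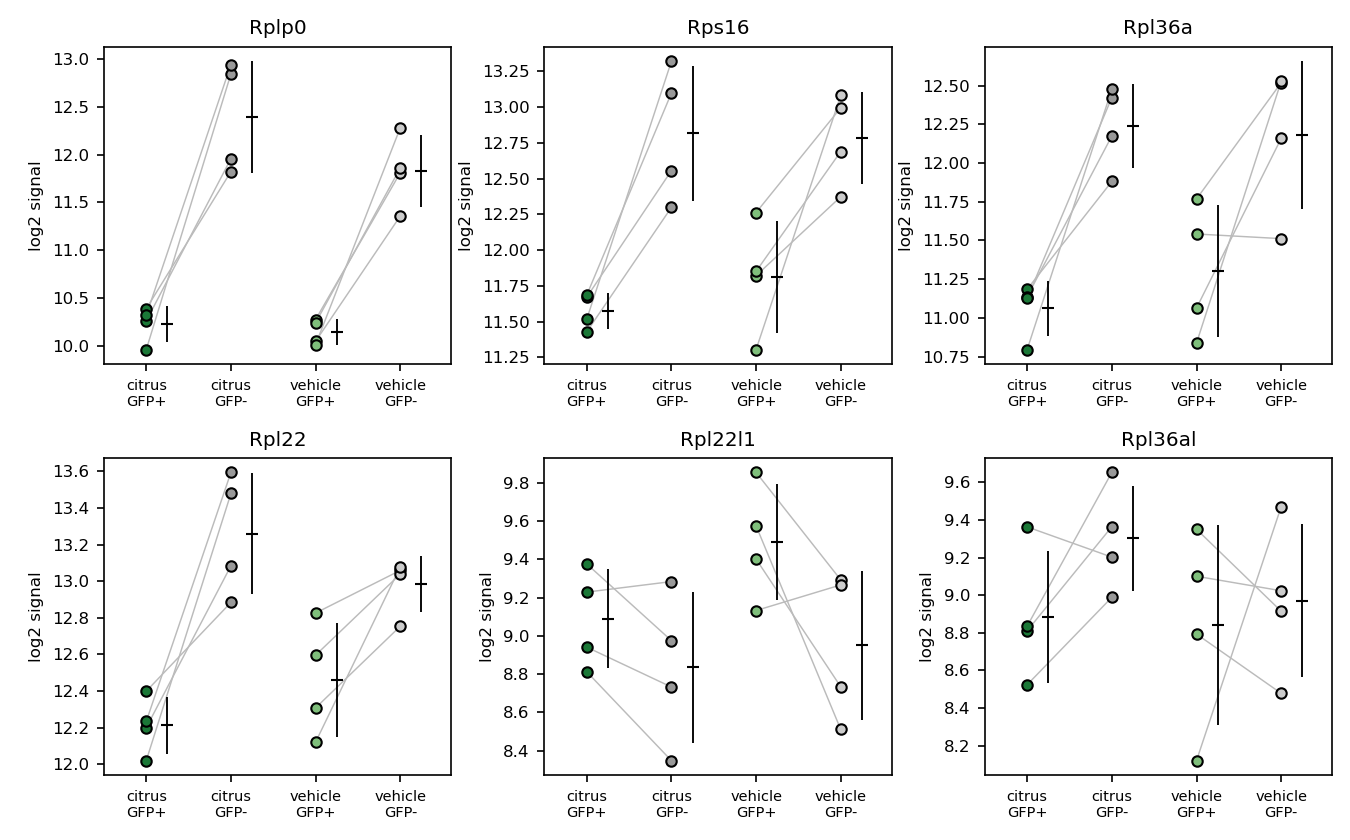
Log2 signal of Rplp0, Rps16, Rpl36a, Rpl22 and of the paralogs Rpl22l1 and Rpl36al on each of the 16 arrays by group, with grey lines joining the arrays taken as the same pool of mice and black marks for mean and SD (n = 4). The lines of Rplp0, Rps16 and Rpl22 all run upward to the GFP-negative arrays, while 3 of 4 lines of Rpl22l1 run downward after each stimulus.

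The usual genes moved as a block from array to array. After group means were removed, the median correlation between pairs of the 55 usual genes over the 16 arrays was 0.75, and 100% of pairs lay above 0, so a count of genes is not a count of independent events. Their mean deviation from each gene's own mean was -0.44, -0.34, -0.39 and -0.32 in GFP-positive cells after citrus (pools 1 to 4) and -0.03, 0.11, 0.58 and 0.64 in GFP-negative cells. After vehicle it was -0.27, 0.08, -0.09 and -0.54 in GFP-positive cells and -0.13, 0.41, 0.33 and 0.40 in GFP-negative cells. The groups were apart after citrus and overlapped after vehicle, where GFP-negative pool 1 lay below GFP-positive pools 2 and 3.

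Within a pool, the GFP-positive mean of the usual genes was lower in all 8 on the deposited scale. The difference was -0.41, -0.45, -0.98 and -0.96 in citrus pools 1 to 4 and -0.14, -0.33, -0.42 and -0.94 in vehicle pools 1 to 4. Of the 64 genes, 57, 55, 60 and 57 were lower in the GFP-positive cells of the citrus pools and 37, 47, 53 and 60 in those of the vehicle pools. The mean of the mature OSN markers differed in the same pools by 0.22, 0.29, 0.56 and 0.40 after citrus and by 0.23, 0.26, 0.20 and 0.47 after vehicle, highest in citrus pools 3 and 4 and vehicle pool 4. The myeloid mean differed by -6.44, -7.45, -7.43 and -7.63 after citrus and by -6.98, -7.07, -6.43 and -7.17 after vehicle. The mean of the globose basal and cycling markers differed by -1.99, -1.95, -2.76 and -2.26 after citrus and by -1.54, -2.13, -2.60 and -2.33 after vehicle. Among the pools of each stimulus it was nearest to 0 in citrus pools 1 and 2 and in vehicle pool 1, as was the ribosomal protein difference. The 2 did not keep the same order elsewhere. Vehicle pool 3 had -2.60 with a ribosomal protein difference of -0.42, and vehicle pool 4 had -2.33 with -0.94. Across stimuli, the ribosomal protein difference of vehicle pools 2 and 3 was nearer to 0 than that of citrus pool 2. The part of these markers in the spread between pools was not tested.

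**Figure D3:**
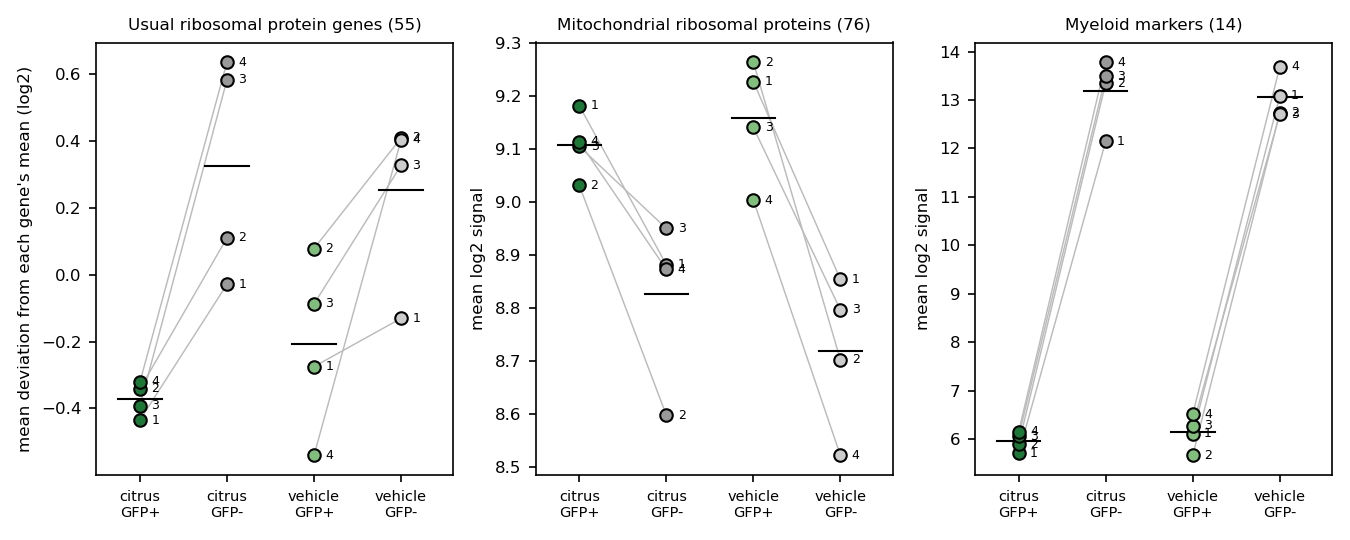
Each point is 1 array, numbered by pool, with grey lines joining the 2 arrays of a pool and a black bar at the group mean: the mean deviation of the 55 usual ribosomal protein genes (left), the mean log2 signal of 76 mitochondrial ribosomal protein genes (middle) and of 14 myeloid markers (right). The usual genes were lower and the mitochondrial ones higher in the GFP-positive cells of all 8 pools on the deposited scale, and under centring on mature OSN markers the mitochondrial citrus median turned to -0.06.

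Promoter windows show how these genes differ at the 5′ end that gives the TOP motif its name. RefSeq windows (GRCm38.p6), 250 bases before to 50 after the annotated start, were matched by Entrez identifier for 51 of the 64 genes. A gene with several windows was counted if any of them held the motif. A window holding a pyrimidine run was preferred for printing. A C at the annotated start followed by at least 4 pyrimidines stood in 12 of the 51 (23.5%), against 3.01% of 27025 genes with a window. It stood in 10 of the 28 with a window that passed after citrus and in 2 of the 23 that did not. These shares are descriptions of annotated starts, which can lie some bases away from the base that cells use.

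The next lines show 60 bases before to 30 after the start, 5′ to 3′ on the gene's strand, so the start is the 61st base, with the pyrimidine run at the start in capitals. The first 4 genes were lower after citrus, and Rpl15 was among the least shifted.
Rps15a (chr7:118116118-118116207, minus strand): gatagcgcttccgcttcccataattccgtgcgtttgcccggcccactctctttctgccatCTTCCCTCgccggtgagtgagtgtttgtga
Rps6 (chr4:86857338-86857427, minus strand): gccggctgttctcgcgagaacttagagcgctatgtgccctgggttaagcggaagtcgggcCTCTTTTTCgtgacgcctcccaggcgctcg
Rpl35 (chr2:39005102-39005191, minus strand): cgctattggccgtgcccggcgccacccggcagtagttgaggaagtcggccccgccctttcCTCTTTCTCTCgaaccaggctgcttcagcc
Rps18 (chr17:33955636-33955725, minus strand): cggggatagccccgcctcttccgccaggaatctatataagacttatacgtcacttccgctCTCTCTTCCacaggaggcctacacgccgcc
Rpl15 (chr14:18270957-18271046, minus strand): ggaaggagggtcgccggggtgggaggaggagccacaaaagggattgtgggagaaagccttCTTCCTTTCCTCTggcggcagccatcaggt
All 5 begin with C and a run of pyrimidines, so the run was present on both sides of the threshold.

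Other members carry such a run a few bases off, the letters TATAAA, or neither. In the next lines capitals mark a run of a C and at least 7 pyrimidines within 30 bases of the start (Rps26, Rpl22l1) and the letters TATAAA (Rplp0, Rpl22l1). The stretches printed for Rps16 and Rpl22 hold no TATAAA and no such run wholly within 30 bases of the start, and stand in lower case. Both hold a pyrimidine run that begins further upstream than the search reached. In Rplp0 the letters TATAAA lie downstream of the annotated start, and in Rpl22l1 upstream of it.
Rplp0 (chr5:115559407-115559496, plus strand): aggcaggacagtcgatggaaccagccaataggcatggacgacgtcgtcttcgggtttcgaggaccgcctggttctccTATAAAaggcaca
Rps16 (chr7:28350629-28350718, plus strand): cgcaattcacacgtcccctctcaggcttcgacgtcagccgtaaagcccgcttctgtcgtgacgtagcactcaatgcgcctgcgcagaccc
Rps26 (chr10:128626477-128626566, minus strand): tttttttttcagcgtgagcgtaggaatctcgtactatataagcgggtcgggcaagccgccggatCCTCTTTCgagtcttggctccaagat
Rpl22 (chr4:152325666-152325755, plus strand): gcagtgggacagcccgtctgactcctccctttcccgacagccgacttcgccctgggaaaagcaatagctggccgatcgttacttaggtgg
Rpl22l1 (chr3:28805448-28805537, plus strand): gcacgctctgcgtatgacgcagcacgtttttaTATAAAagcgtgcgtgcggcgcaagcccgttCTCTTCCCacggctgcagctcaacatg
A run of that kind stood within 30 bases of the start in 27 of the 51 genes (52.9%), against 20.6% of all genes with a window, a search added after the first was seen, and in 17 of the 28 genes lower after citrus and 10 of the 23 others. No such run was found within 30 bases of the annotated start in Rplp0 and Rps16. Whether their mRNAs begin with one was not tested, since the start that cells use was not measured.

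The letters CCGGAAG, which ETS factors such as GABP bind, stood on either strand of the whole window in 21 of the 51 genes (41.2%), against 9.93% of all genes. AAGATGG, the core of the YY1 motif, stood in 8 (15.7% against 7.28%) and TATAAA in 7 (13.7% against 15.7%). CCGGAAG was found in 12 of the 28 genes lower after citrus and 9 of the 23 others, AAGATGG in 6 and 2, and TATAAA in 6 and 1.

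The paralogs were mostly too dim to compare with the usual genes. Only Rpl32l passed after citrus (-0.84 ± 0.26, adjusted p = 0.0280, lost without citrus pool 2, 3 or 4). Its symbol marks a copy of Rpl32, and whether its probes tell the copy from Rpl32 was not tested. After vehicle 0 of the 9 passed (2 of 9 at an unadjusted p under 0.05, both higher, against 3486 of 19572 probe sets higher). Of the 9, 5 lay above 0 after citrus and 6 after vehicle, against 0 and 5 of the 55 usual genes. Of all 19572 probe sets, 12807 lay above 0 after citrus and 12181 after vehicle, so the signs of the paralogs were near the background. Rpl3l, Rpl10l, Rpl39l and Rps27l were below the negative-control 95th percentile on all 16 arrays, and Rps4l was above it on 2, so these give no firm level and could not show a fall. Of the 5 paralogs above 0 after citrus, 4 were among these, and all 5 turned below 0 under centring on mature OSN markers. Of the other 4, Rpl32l, Rpl36al (-0.42) and Rpl7l1 (-0.09) lay below 0 after citrus and Rpl22l1 above it.

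Rpl22l1 encodes the close relative of Rpl22. It had 8.94, 8.81, 9.23 and 9.38 in GFP-positive cells after citrus and 8.73, 8.35, 9.28 and 8.98 in GFP-negative cells. After vehicle it had 9.40, 9.58, 9.85 and 9.13 in GFP-positive cells and 8.73, 8.51, 9.29 and 9.27 in GFP-negative cells, with overlap after both stimuli. The differences were 0.25 ± 0.23 (adjusted p = 0.485) after citrus and 0.54 ± 0.23 (adjusted p = 0.115) after vehicle, and it was above the control level on 7 of 16 arrays. Under centring on the median it passed after citrus and vehicle (adjusted p = 0.0378 and 0.0085), and under centring on mature OSN markers its citrus difference turned to -0.11.

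Within an array, array-wide scaling cancels, so each paralog was set against its partner. Of 8 named pairs 6 could be measured, in 24 comparisons, since probe sets for Rpl10 and Rps27 are not analysed here. Rpl22l1 minus Rpl22 was higher in GFP-positive cells by 1.302 after citrus and by 1.06 after vehicle, and by 0.69, 1.35, 1.31 and 1.86 in citrus pools 1 to 4 and 1.11, 1.297, 1.01 and 0.82 in vehicle pools 1 to 4. The GFP-positive and GFP-negative arrays did not overlap after either stimulus. The exact permutation p was 0.0286 each (two-sided, the smallest that 4 against 4 arrays allow), and 0.171 after adjustment over the 24 tests, so neither passed. Rpl36al minus Rpl36a was higher by 0.76 after citrus (exact permutation p = 0.0286, adjusted 0.171) and by 0.75 after vehicle (exact permutation p = 0.0857, adjusted 0.294). Rpl7l1, which was above the control level on all 16 arrays, gained on Rpl7 by 0.40 after citrus and 0.38 after vehicle, in 4 of 4 pools each (exact permutation p = 0.114 and 0.0571). In all, 4 of the 24 tests reached the smallest p, Rpl39l minus Rpl39 after citrus among them, and 0 passed after adjustment. With this smallest p, adjustment over 24 tests can be passed only where most of them reach it. Unequal shifts of a paralog and its partner were thus not shown, and for Rpl3l, Rpl39l and Rps4l, whose signal lay at the control level, the difference mainly reads the partner. The same limit holds in part for Rpl22l1 and Rpl36al, which were above the control level on only 7 and 8 of the 16 arrays.

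**Figure D4:**
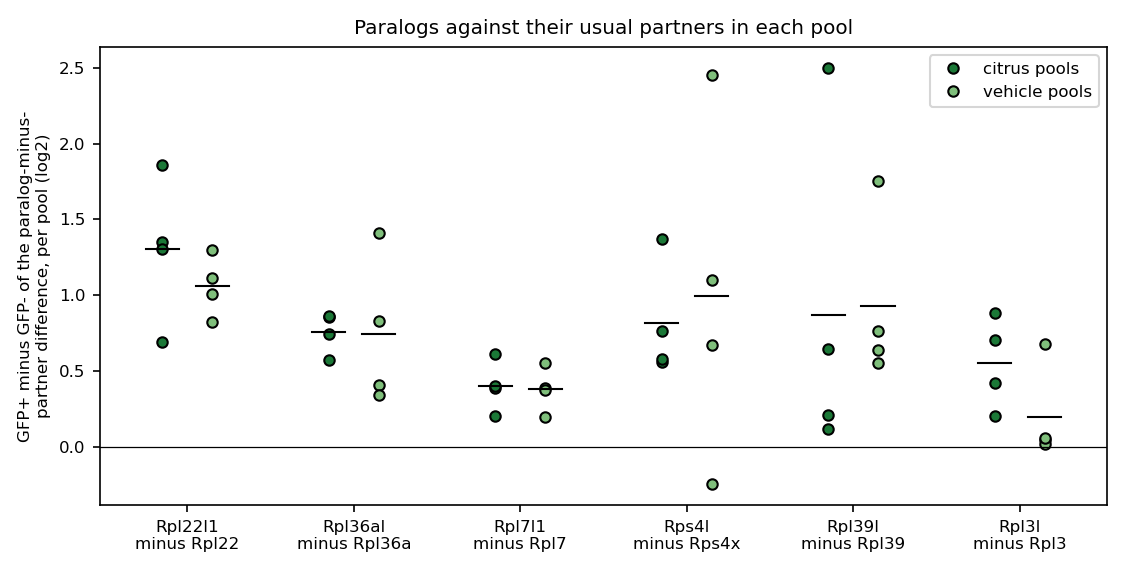
For each of 6 pairs, points give the GFP-positive minus GFP-negative difference of the paralog-minus-partner log2 value in each citrus pool (left of the pair) and vehicle pool (right), and bars their mean. Rpl22l1 against Rpl22 lay between 0.69 and 1.86 in all 8 pools, and 1 vehicle pool of Rps4l against Rps4x (-0.25) was the only point below 0.

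Citrus itself did not move any ribosomal protein gene past the threshold. Between GFP-positive cells after citrus and vehicle, 0 of 64 genes passed (0 at an unadjusted p under 0.05), against 0.0204% of all probe sets. The median difference was -0.16, with 56 of 64 below 0, against 9510 of 19572 probe sets below 0. Rps13, Rpl8 and Rpl22l1 had the smallest p there, with -0.41 ± 0.20, -0.33 ± 0.17 and -0.40 ± 0.23 (adjusted p = 0.999 each). Rps13 had 10.65, 10.99, 10.80 and 11.16 after citrus and 10.91, 11.61, 11.46 and 11.29 after vehicle, which overlap. The arrays of 0 of 64 genes were wholly lower after citrus, against 1.26% of all probe sets in GFP-positive cells and 1.57% in GFP-negative cells.

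Between GFP-negative cells after citrus and vehicle, 0 of 64 passed against 0.0153% of all probe sets, and 1 was higher at an unadjusted p under 0.05. The median difference was 0.06, and it fell to between -0.059 and -0.045 when citrus pool 3, citrus pool 4 or vehicle pool 1 was left out. Rplp0, Rpl19 and Rpl6 had the smallest p, with 0.56 ± 0.24, 0.32 ± 0.18 and 0.28 ± 0.17 (adjusted p = 0.83, 0.871 and 0.871). In GFP-negative cells Rplp0 overlapped between stimuli (11.82 to 12.95 after citrus, 11.36 to 12.28 after vehicle).

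The effect of citrus on the gate difference, tested as an interaction, passed for 0 of 64 genes (0 at an unadjusted p under 0.05) and for 0% of all probe sets. Its median was -0.25, with 60 of 64 below 0, against 9994 of 19572 probe sets below 0. The usual genes moved as a block, so these signs are not independent. Since 0 genes passed, the counts of 33 after citrus and 17 after vehicle do not show a larger gate difference with citrus for any one gene. Rpl19, Rpl22 and Rpl35 had the smallest p, with -0.54 ± 0.26, -0.53 ± 0.26 and -0.47 ± 0.26 (adjusted p = 0.999 each). Rpl19 showed the pattern in its gate differences, -0.53 ± 0.18 after citrus (adjusted p = 0.0525) and 0.01 ± 0.18 after vehicle (adjusted p = 0.985). The interaction and the citrus comparisons share their arrays with the gate comparisons.

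Fau, whose product carries the ribosomal protein Rps30 behind a ubiquitin-like part, lies outside the naming rule. It had 11.91, 12.21, 12.23 and 11.98 in GFP-positive cells after citrus and 12.52, 12.75, 13.11 and 13.31 in GFP-negative cells, with no overlap (-0.84 ± 0.17, adjusted p = 0.0018). After vehicle it had 12.61, 12.69, 12.61 and 12.20 in GFP-positive cells and 12.50, 12.62, 12.73 and 12.50 in GFP-negative cells, with overlap (-0.06 ± 0.17, adjusted p = 0.855). Its interaction was -0.78 ± 0.25 (unadjusted p = 0.0057, adjusted p = 0.999), which did not pass.

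Other genes of translation were read against the same background. Of 11 elongation factors, Eef1b2, a subunit of the exchange factor for eEF1A, was lower after citrus (-1.14 ± 0.22, adjusted p = 9.4e-04) and after vehicle (-0.76 ± 0.22, adjusted p = 0.0208). Eef1a2, the form of eEF1A known from neurons and muscle, was higher after citrus (0.47 ± 0.15, adjusted p = 0.0343), a call that was lost under centring on mature OSN markers and without any 1 of the citrus pools. The vehicle call of Eef1b2 was lost without vehicle pool 3 or 4. The 1 gene lower was 9.09% of the 11 after each stimulus, near the 10.8% (citrus) and 9.97% (vehicle) of all probe sets lower. The 1 gene higher after citrus was also 9.09%, near the 7.44% of all probe sets higher. Of 28 initiation factors measured, 0 were higher and 1 lower after citrus (Eif3f, -0.57 ± 0.19, adjusted p = 0.0422), and 3 were higher and 0 lower after vehicle (Eif2b4, Eif3i and Eif2b3, 0.88, 0.65 and 0.52), near the 9.05% of all probe sets higher. Under centring on the median 15 were higher after citrus (53.6%, against 46.6% of all probe sets) and 19 after vehicle (67.9% against 36.2%). Under centring on mature OSN markers 0 were higher. The Eif3f call was lost without citrus pool 2, 3 or 4, and 0 or 1 initiation factors were higher without any 1 vehicle pool. Of 9 other mRNAs known to carry TOP motifs, Vim and Pabpc1 were lower after both stimuli and Npm1 after citrus. These were 33.3% of the 9 after citrus and 22.2% after vehicle, against 10.8% and 9.97% of all probe sets lower. Pabpc1, the poly(A)-binding protein, averaged 15.61 ± 0.13 in GFP-positive cells and 16.53 ± 0.14 in GFP-negative cells after citrus, and 15.47 ± 0.08 in GFP-positive cells and 16.38 ± 0.42 in GFP-negative cells after vehicle (SD, n = 4 each). Vim encodes vimentin, an intermediate filament protein of non-neuronal and immune cells. It averaged 6.45 in GFP-positive cells, below the control level, and 12.55 in GFP-negative cells after citrus, and 6.06 in GFP-positive cells and 12.06 in GFP-negative cells after vehicle.

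Of 53 ribosome biogenesis genes, 0 were higher and 1 (Npm1, a nucleolar chaperone) lower after citrus, and 7 were higher and 0 lower after vehicle (13.2%, against 9.05% of all probe sets higher). The largest 4 after vehicle were Ddx56, Rrp1, Polr1c and Lsg1, between 0.70 for Ddx56, which lay below the control level, and 0.52 for Lsg1. Without single vehicle pools the count was 1 to 5, and Npm1 lost its citrus call without citrus pool 3 or 4. Under centring on the median 20 were higher after citrus and 27 after vehicle (37.7% and 50.9%, against 46.6% and 36.2% of all probe sets). Under centring on mature OSN markers 0 of the 53 were higher after either stimulus and the median turned to -0.29 after citrus and -0.14 after vehicle. Of 21 genes of mTORC1 and translational control, Myc and Eif2ak2 were lower after citrus (-3.53 and -0.56), and Myc, Eif4ebp1, Eif4ebp2 and Eif2ak2 after vehicle (-2.69, -1.11, -0.84 and -0.49). All of these had group means below the mean control 95th percentile of 9.13, so they give no firm level. The 2 of 21 after citrus (9.52%) lay near the 10.8% of all probe sets lower, and 1 passed without citrus pool 2, 3 or 4. The 4 of 21 after vehicle were 19%, against 9.97% of all probe sets lower. The vehicle count was 3 without pool 1, 2 without pool 2 (9.52%, against 7.86% of all probe sets) and 1 without pool 4 (4.76% against 7.36%). Myc, a transcription factor that drives ribosome production, averaged 4.54 ± 0.15 in GFP-positive cells and 8.06 ± 0.47 in GFP-negative cells after citrus, and 4.58 ± 0.19 in GFP-positive cells and 7.27 ± 0.56 in GFP-negative cells after vehicle (SD, n = 4 each).

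Mitochondrial ribosomal proteins, which are nuclear-encoded parts of the separate ribosome inside mitochondria, lay higher in GFP-positive cells on the deposited scale. This list was chosen after values were seen. Of 76 genes, 10 were higher and 0 lower after citrus (13.2% against 7.44% of all probe sets higher, median 0.31), and 27 were higher and 0 lower after vehicle (35.5% against 9.05%, median 0.45). Mrps33 averaged 12.23 ± 0.14 in GFP-positive cells and 11.61 ± 0.16 in GFP-negative cells after citrus, with no overlap (0.63 ± 0.13, adjusted p = 0.0021). Mrpl58 averaged 12.58 ± 0.14 in GFP-positive cells and 11.78 ± 0.32 in GFP-negative cells after vehicle, also with no overlap (0.80 ± 0.17, adjusted p = 0.0021). Mrpl46 had the largest difference, 0.89 after citrus and 0.92 after vehicle, at means below the control level. The counts were 54 after citrus (71.1%, against 46.6% of all probe sets higher) and 65 after vehicle (85.5% against 36.2%) under centring on the median, and 1 and 1 under centring on mature OSN markers, where 1 was lower after citrus and the citrus median turned to -0.06. Leaving out pools gave 3 to 7 after citrus and 10 to 23 after vehicle. Without citrus pool 2 the 3 genes (3.95%) lay below the 5.13% of all probe sets, and without citrus pool 3 the 5 genes (6.58%) near the 4.81%. Without vehicle pool 2 the 10 genes (13.2%) stood against 4.74%, and without vehicle pool 4 the 15 genes (19.7%) against 4.75%. The median of the mitochondrial genes minus that of all probe sets, which centring cannot change, was 0.17 after citrus and 0.34 after vehicle.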

How the data were processed

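Per the submitters' processing notes the authors used Affymetrix Expression Console. Their deposited table holds log2 values of 28846 probe sets on 16 arrays, and neither its version nor a genome build is given in the sources used here. The label of 1 array mentions SST-RMA, a summary method that also transforms the signal scale, so log2 differences are read on the deposited scale only. Values were used as deposited. Symbols came from the platform annotation: 19572 probe sets with 1 symbol were tested, and all 64 members matched a current gene table by Entrez identifier. Arrays give no read depth, and their number limits the precision. The 95th percentile of 5222 negative-control probe sets lay between 8.75 and 9.71 per array.

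The 5 comparisons came from a single two-sided limma model (limma 3.58.1, R 4.3.3) holding a mean for each group of the 16 arrays, with Benjamini-Hochberg adjustment over all 19572 and a threshold of 0.05. The fit was tested on simulated data. Paralog pairs were compared by exact permutation of 4 against 4 arrays (Python 3.11.15, scipy 1.17.1), and figures drawn with matplotlib 3.10.9. GFP-positive and GFP-negative arrays of one number were taken as the same pool, a reading that fits 24 mice in 8 pools of 3 but that no label spells out. Their deviations correlated at 0.075 to 0.275. Arrays of the same number and gate from the 2 stimuli, which came from different mice, correlated at -0.013 to 0.354. The correlations therefore do not settle the reading of pools. The labels describe separate replicates of 3 mice. The p-values of the main model rest on the spread between arrays within groups and leave the pairing of GFP-positive and GFP-negative arrays out. Only the fit with the pool as a block takes it in. No label separates arrays into batches.

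Members and lists were chosen with earlier results of these data known. Named were up to 10 members per gate comparison and direction with the largest called difference, the 3 with the smallest p for each citrus comparison, the paralog pairs, Fau, and up to 4 called genes per list and direction. Rack1 is not analysed here. Rplp1, Rps6, Rpsa, Rps29, Rpl29, Rpl9, Rpl41, Rpl15, Rpl5, Rpl11, Rpl32l and the mitochondrial genes were named after values were seen. Alternatives were the pool or number as a block, centring on the median or on mature OSN markers, a trended robust fit, only the groups compared, a filter on dim probe sets, 1 probe set per symbol, each pool left out, retrogenes added and pools numbered 1 left out, the last 2 chosen after seeing the data.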

Additional observations from a re-analysis of the deposited data

Results flagged for a closer look

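In 7 of 112 groups of 4 arrays, 1 array lay far from the other 3, with a gap to its nearest neighbour, relative to the whole range, above the 95% critical value of Dixon's test. Chance gives about 1 in 20 such groups. In GFP-positive cells after citrus these were Rpl36a in pool 4 at 10.80 (others 11.13 to 11.19) and Rps24 in pool 1 at 13.86 (others 14.08 to 14.13). In GFP-positive cells after vehicle it was Fau in pool 4 at 12.20 (others 12.61 to 12.69). In GFP-negative cells after vehicle these were Rps15a in pool 1 at 11.02 (others 11.78 to 11.89), Rpl22 in pool 1 at 12.75 (others 13.04 to 13.08), Rps27l in pool 3 at 7.93 (others 8.26 to 8.32) and Rpl19 in pool 3 at 16.26 (others 15.70 to 15.74).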

How the results depend on the processing

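After vehicle the members lower numbered 5 under centring on the median (3 higher: Rpl22l1, Rps4l and Rps27l), 30 under centring on mature OSN markers, 11 with only the groups compared, and 18 with the pool as a replicate block, where 1 (Rps4l, adjusted p = 0.0379) was higher, and 1 to 18 when pools were left out. After citrus they numbered 19 (3 higher: Rpl22l1, Rpl3l and Rps27l) and 50 under these centrings, with medians of -0.24 and -0.93, 38 with the replicate block, and 17 to 35 without single pools. The citrus minus vehicle median in GFP-negative cells ranged from -0.059 to 0.14 without single pools. With the retrogenes added, 34 of 67 were lower after citrus and 18 of 67 after vehicle. All sign changes were in genes or pairs that had not passed, and their cause was not tested beyond the shift that each centring adds to every gene. Under centring on the median they were Rpl39l 0.26 and Rpl7l1 0.24 after citrus, and Rpl10l 0.24, Rpl36al 0.15 and Fau 0.22 after vehicle. Under centring on mature OSN markers they were Rpl22l1 -0.11, Rps4l -0.10, Rps27l -0.14, Rpl10l -0.28 and Rpl3l -0.21 after citrus, and Rpl39l -0.13, Rpl3l -0.12 and Rpl7l1 -0.15 after vehicle. Rpl39l after citrus was 0.046 without the arrays numbered 1. Without single pools the ranges were -0.46 to 0.14 (Rpl39l) and -0.0080 to 0.16 (Rpl10l) after citrus, and -0.13 to 0.10 (Rpl10l), -0.32 to 0.28 (Rpl36al) and -0.12 to 0.021 (Fau) after vehicle. For citrus minus vehicle, the pair ranges were -0.16 to 0.34 (Rpl3l minus Rpl3), -0.23 to 0.16 (Rpl39l minus Rpl39) and -0.49 to 0.55 (Rps4l minus Rps4x) in GFP-positive cells, and -0.24 to 0.10 (Rpl39l minus Rpl39) and -0.022 to 0.34 (Rps4l minus Rps4x) in GFP-negative cells. The replicate block by number changed no call of citrus against vehicle.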
